A study of Mus musculus with 24 samples.

Results

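The Hox genes encode homeobox transcription factors that lie in 4 clusters. All array probesets named for a gene of the Hoxa, Hoxb, Hoxc or Hoxd cluster were taken, control spots excluded, and this gave 43 probesets for 39 genes of 55681 probesets in all. Hoxa9, Hoxa13 and Hoxb3 were among the genes with 2 probesets. Hippocampal RNA came from male C57BL/6 mice killed on P9, with 5 arrays in each of 3 groups. Controls (Con) were untreated and minimally handled. From P5 the MS2 and MS5 pups received morphine at 2 and 5 mg/kg, isolation from the dam in a warmer at 32°C, and apnea given as 1 min of N2 followed by 5 min of O2. No group received stress without morphine, so each contrast with Con spanned both. The labels give no litter for any array, and p-values measure the spread between these arrays only.

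As background, Hox genes pattern the embryo from the hindbrain backwards, and their order along a cluster follows the order of their expression along the body. The forebrain, from which the hippocampus grows, develops largely without Hox expression. The proteins bind DNA through the homeodomain, often together with Pbx and Meis cofactors that are common in the forebrain. Polycomb complexes keep silent Hox clusters repressed. Choroid plexus of the hindbrain descends from Hox-expressing tissue, whereas that of the lateral ventricle lies beside the hippocampus and is of forebrain origin.

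Levels are log2 of background-adjusted, quantile-normalized intensity. A probeset was called well above background where the scanner software set that flag for its spot. The median spot signal ran from 121 to 153 in Con, from 58.2 to 154 in MS2 and from 126 to 151 in MS5. MS2 replicate 5 had the lowest. Both slides held all 3 groups, and scan and slide coincided. Markers of hippocampus and dorsal forebrain, fixed as a list of 10 genes, were well above background on all arrays. Their mean level was 10.83 on MS2 replicate 4 and 12.48 to 12.94 on the 14 other arrays, so that array stood apart from its tissue label. It was also above the 14 others in cerebellum markers (9.34 against 7.93 to 8.38) and in markers of hindbrain and spinal cord neurons (7.33 against 6.68 to 7.15). MS5 replicate 9 carried Xist at 11.34, against 5.89 to 6.08 on the 14 other arrays, although all animals were labelled male. On the same array Ddx3y, a Y-linked gene, was at 6.24, against 11.01 to 11.45 elsewhere. The differences of Hoxb3 and Hoxa4 and the counts for the cofactor, regulator and choroid plexus lists are given with and without these 2 arrays, a choice made after seeing the data.

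The sequences of 3 probes that lie in coding sequence are shown because they place the measured stretch within the protein. They were read from the scanner files, and positions are in mm9. The capitals in the Hoxc11 probe mark TGGTTNCAN, letters that include the Trp-Phe-Gln codons of the homeodomain's recognition helix. The capitals in the Hoxa6 probe mark CCNTGGATG, the Pro-Trp-Met codons of the motif through which Hox proteins contact Pbx.
Hoxc11: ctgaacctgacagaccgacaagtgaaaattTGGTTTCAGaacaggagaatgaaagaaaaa
Hoxa6: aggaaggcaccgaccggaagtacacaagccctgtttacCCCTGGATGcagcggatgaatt
Hoxc12: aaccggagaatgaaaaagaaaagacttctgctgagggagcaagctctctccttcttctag
The Hoxc11 probe lies at chr15:102787022-102787081 and the Hoxc12 probe at chr15:102768889-102768948, both on the plus strand. The Hoxa6 probe lies at chr6:52158194-52158253 on the minus strand. On the probe strand TGGTTNCAN occurred in 0.51% of the 55681 probes and CCNTGGATG in 0.128%. In a frame free of stop codons, the first was found in 2 Hox probesets and the second in 1.

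Most Hox genes were not heard in this tissue. Of the 43 probesets, 25 (58.1%) never passed the flag, against 15.9% of all probesets. Another 8 (18.6%) passed it throughout 1 group or more, that is on all 5 of its arrays, against 72% of all probesets. These 8 belonged to 7 of the 39 genes. In the Hoxa cluster they were Hoxa4, Hoxa6, Hoxa7 and both probesets of Hoxa9. In the Hoxb cluster, probed over chr11:96057854-96228510, they were Hoxb3 and Hoxb6. In the Hoxc cluster, probed over chr15:102759058-102867272, Hoxc12 was the only one. In the Hoxd cluster, probed over chr2:74509248-74603059, there were 0 of 9 genes, and Hoxd11 passed on 1 MS5 array. These genes encode transcription factors that in the embryo mark levels from the hindbrain to the tail end of the trunk.

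**Figure D1:**
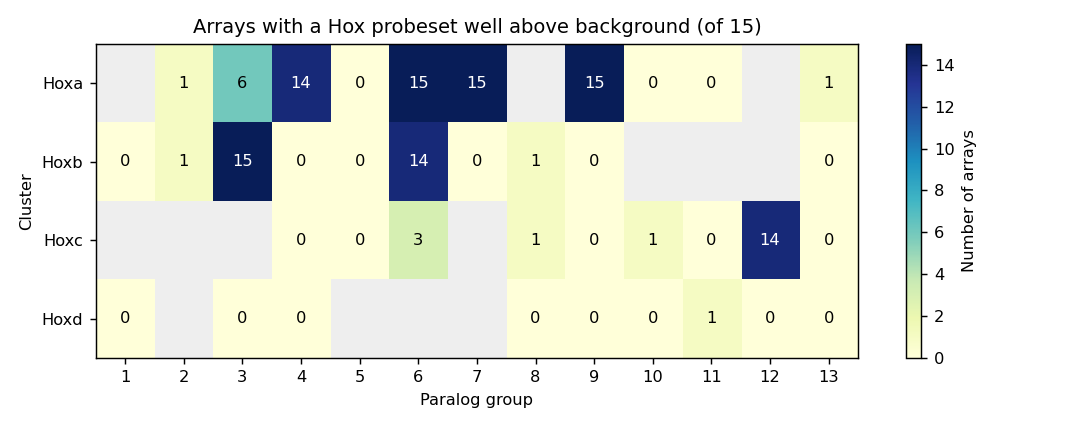
Number of arrays, of 15, on which a probeset of each Hox gene was well above background, by cluster (rows) and paralog group (columns). For genes with 2 probesets the higher number is shown, and grey squares hold no value. Hoxb3, Hoxa6, Hoxa7 and Hoxa9 reach 15 arrays, and 22 genes are at 0.

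Hoxa6, Hoxa7, the homeobox probeset of Hoxb3 and 1 of the Hoxa9 probesets were well above background on all 15 arrays. Hoxa4, Hoxb6, Hoxc12 and the other Hoxa9 probeset reached 14. Between 8 and 11 Hox probesets passed on a Con array, between 5 and 10 on an MS2 array and between 9 and 12 on an MS5 array, and these ranges overlapped. The lowest number, 5, came from MS2 replicate 5, the array with the lowest median signal. A further 10 probesets passed on 1 to 7 arrays. Among them were Hoxa3 on 6 arrays and Hoxc6 on 3. The 25 probesets that passed on no array lay between 5.72 and 6.13. On a given array the lowest level among all probesets well above background was 5.93 to 6.27.

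Probe sequences had not been used in the selection. Most Hox probesets, 31 of 43 (72.1%), were free of stop codons in at least 1 forward frame. Among the 8 heard throughout a group this held for 8 of 8, against 23 of the 35 other Hox probesets. The share over all probesets is not given here. The other 12 Hox probesets had a stop codon in all 3 frames. The GC content of the 8 had a median of 45% (36.7% to 55%), and that of the 35 others a median of 38.3% (30% to 55%). Over all probesets the median was 43.3% for those that passed the flag throughout a group and 41.7% for the rest. The part of probe composition in these counts was not tested.

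Hox levels differed little between groups, but 35 of the 43 probesets were not above background throughout any group. At such levels a difference could hardly show, and Hoxa4, Hoxa6, Hoxa7, Hoxb6 and Hoxc12, heard throughout a group, lay little higher. Of all probesets 72% passed the flag throughout a group, so the shares below are not like for like. In MS5 against Con, 41 of 43 probesets differed by less than 0.1 (log2), and Hoxb3 did not. Of all probesets, 80.0% did. The median difference over the 43 was 0.0012, and over all probesets it was 0.00033. In this contrast 22 were higher and 21 lower. In MS2 against Con the median over the 43 was 0.0025, and 39 differed by less than 0.1, as did 77.5% of all probesets. In MS5 against MS2 it was -0.0032, and 38 differed by less than 0.1, as did 80.7% of all. Over the 8 heard throughout a group the median was -0.018 in MS5 against Con. It was -0.049 in MS2 against Con and 0.031 in MS5 against MS2. Among these 8, Hoxb3 (-0.22) and 1 Hoxa9 probeset (-0.20) differed by more than 0.1 in MS2 against Con. In MS5 against MS2, Hoxb3 (-0.34), the same Hoxa9 probeset (0.16) and Hoxa4 (0.11) did.

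Single probesets were called at more than 1.5-fold with an unadjusted limma p under 0.05. By this rule 0 of 43 Hox probesets were called in MS5 against Con, where the background was 0.228% of all probesets. The count was also 0 in MS2 against Con, with a background of 0.0233%, and 0 in MS5 against MS2, with a background of 0.129%. At an unadjusted p under 0.05 alone, Hoxb3 (1 of 43) passed in MS5 against Con, where 3.91% of all probesets did. Hoxa4 (1 of 43) passed in MS5 against MS2, where 3.97% did. In MS2 against Con 0 of 43 passed, where 4.17% did. These shares lay below the background. No probeset of the array passed an adjusted p under 0.05 in any contrast (0%). Arrays of the groups compared overlapped for all 43 Hox probesets. Over all probesets they did not overlap for 0.832% in MS5 against Con, 0.699% in MS2 against Con and 0.625% in MS5 against MS2.

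**Figure D2:**
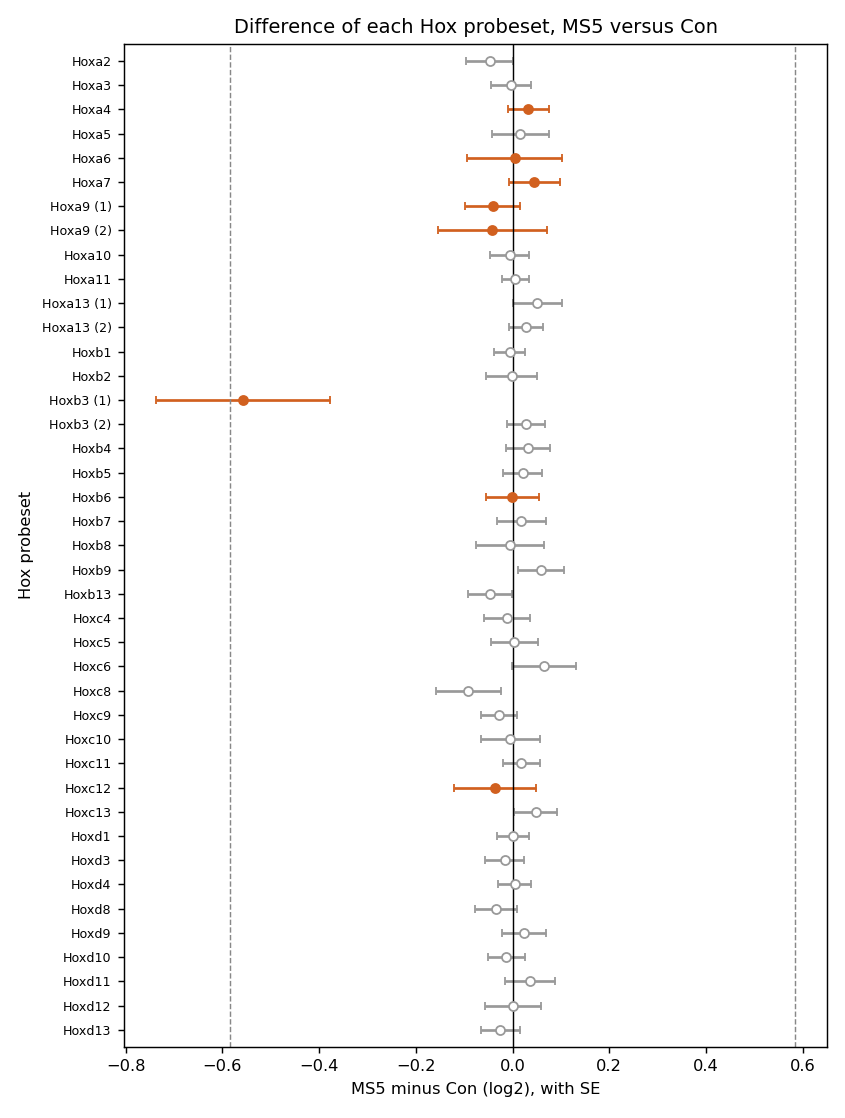
Difference between MS5 and Con (log2) for 41 Hox probesets, with the SE from limma. Filled points passed the background flag throughout 1 group or more, and dashed lines mark 1.5-fold. The homeobox probeset of Hoxb3 lies at -0.56, and the 39 plotted probesets of other genes lie between -0.091 and 0.065.

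Hoxb3 belongs to paralog group 3 and in the embryo is expressed in the hindbrain and spinal cord. It was named among the responding genes of the study from these same arrays, so the values here are not independent evidence of its direction. The homeobox probeset stood at 7.10, 7.73, 7.74, 7.17 and 7.45 on Con replicates 15 to 19. On MS2 replicates 1, 3, 4, 5 and 7 it stood at 7.40, 7.36, 6.91, 7.27 and 7.16. On MS5 replicates 8, 9, 12, 13 and 14 it stood at 7.09, 6.73, 7.26, 7.07 and 6.25. All MS5 arrays but replicate 12 lay below every Con array, and replicates 14 and 9 also lay below every MS2 array. Group means were 7.44 ± 0.30 (SD, n = 5) in Con, 7.22 ± 0.20 in MS2 and 6.88 ± 0.40 in MS5.

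In MS5 the level of Hoxb3 differed from Con by -0.56 (SE 0.18), a 1.47-fold lower mean. The unadjusted limma p was 0.0074, the adjusted p was 1.00, and the two-sided exact permutation test gave p = 0.040, where the smallest possible p was 0.00794. The size missed the 1.5-fold threshold here, whereas the study listed Hoxb3 with a larger fall in MS5 that passed it. With array weights in the fit the difference was -0.64, which also passed it. In MS2 the difference from Con was -0.22 (SE 0.18, exact permutation p = 0.22). Between MS5 and MS2 it was -0.34 (SE 0.18, exact permutation p = 0.12), so a difference between the doses was not shown. On dose taken as 0, 2 and 5 mg/kg, the slope was -0.11 per mg/kg (SE 0.034, adjusted p = 0.99). Dose 0 was the untreated group without stress, so this slope spans stress as well as dose.

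The Hoxb3 difference varied with the arrays left out and between slides. Without MS5 replicate 14 it was -0.40 in MS5 against Con. Without the 2 arrays that stood apart it was -0.52 (exact permutation p = 0.079). It exceeded 1.5-fold when Con replicate 15 or 18, or MS5 replicate 8, 12 or 13, was left out, with values from -0.61 to -0.65. On the scanner's processed signal it was -1.07. With slide as a block it was -0.54. Within slide 1 the difference was -0.26 (2 MS5 arrays against 3 Con arrays), and within slide 2 it was -0.84 (3 against 2). Slide 2 held MS5 replicates 9 and 14, the MS5 arrays lowest in Hoxb3, so slide and array cannot be told apart here.

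The second Hoxb3 probeset gave another picture. Its probe lies at chr11:96209002-96209061, toward the 3' end of the transcript, and starts at its base 3147. It was well above background on 0 of 15 arrays, at 5.77 to 5.93. The 3 groups overlapped. The difference between MS5 and Con was 0.027 (SE 0.040, exact permutation p = 0.45). The annotation in the scanner files lists a Hoxd3 transcript beside those of Hoxb3 for the homeobox probe, and this was the only Hox probe listed with a transcript of another gene. Hoxd3, a paralog with its own probeset, was well above background on 0 arrays. The probeset of Hoxa3, the remaining paralog of the group, passed on 2 arrays of each group. Hoxa3 differed by -0.0036 between MS5 and Con.

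**Figure D3:**
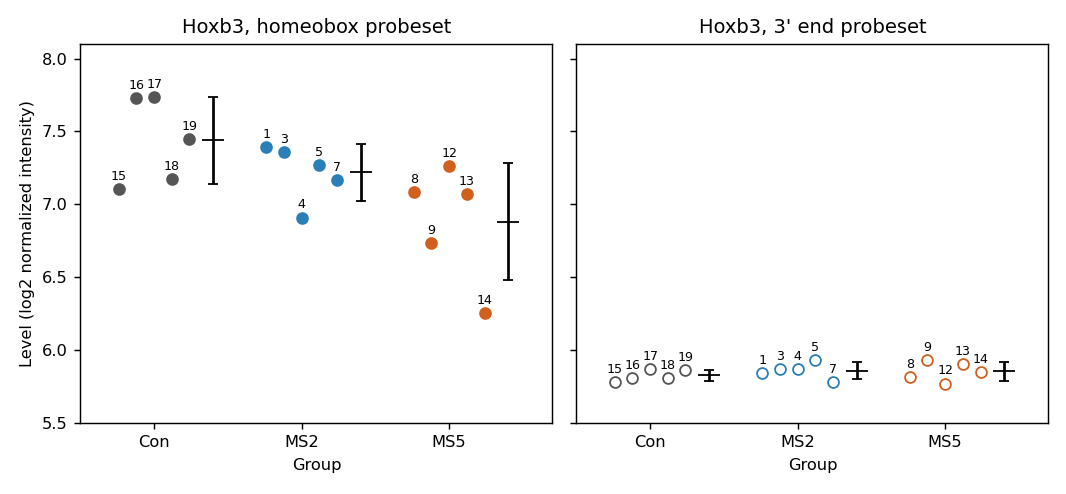
Levels (log2) of both Hoxb3 probesets on each array, numbered by replicate, with mean and SD (n = 5). Filled points were well above background. The homeobox probeset (left) spans 6.25 to 7.74 and is lowest on MS5 replicates 14 and 9, and the 3' end probeset (right) stays between 5.77 and 5.93 in all groups.

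Markers of choroid plexus moved with Hoxb3. All 20 genes of that list were well above background on 15 of 15 arrays, and 17 of 20 were called lower in MS5 against Con, where 0.228% of all probesets were called. The list includes genes that the study had named as lowered in MS5 from these same arrays, so the count is no independent evidence. Without MS2 replicate 4 and MS5 replicate 9 the count was 10 of 20, where 0.298% of all probesets were called, with a median difference of -0.96. Without MS5 replicates 9 and 14 it was 3 of 20, where 0.0736% were called, with a median of -0.38. Over all arrays the median of the 20 genes was -1.25. Their summed level ranged from 288440 to 442130 in Con, from 308533 to 400625 in MS2 and from 26638 to 354483 in MS5. Their mean log2 level was 9.71 on MS5 replicate 9 and 8.90 on MS5 replicate 14, and it was 10.91 to 12.11 on the 13 other arrays. The arrays lowest in these markers were thus the arrays lowest in Hoxb3. Ttr, the transthyretin gene and the most familiar choroid plexus marker, was at 17.66 to 18.15 on Con arrays and at 12.84 to 17.92 on MS5 arrays. In bulk tissue, fewer cells of a type and less RNA per cell cannot be told apart.

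Over the 15 arrays Hoxb3 and the mean choroid plexus level gave a Pearson's r of 0.93 and a Spearman's rho of 0.93. The permutation p was 1e-05 for each, the smallest that 100000 resamples can give, and 8e-05 after adjustment over 8 marker lists. Hoxb3 and several genes of this list had been named by the study as lowered in MS5 from these same arrays. A shared pattern was thus partly built in by selection, so the p is no independent evidence that they move together. The permutation also took no account of group. Without MS5 replicates 9 and 14, the arrays farthest from the median, r was 0.89 (permutation p = 4e-05). Within slide 1 it was 0.90 over 8 arrays, and within slide 2 it was 0.94 over 7. The groups share these arrays with the contrast itself, so the relation is no independent evidence of the difference. With the choroid plexus level as a term of the fit, a setting chosen after seeing the data, Hoxb3 differed by -0.090 between MS5 and Con. The unadjusted limma p was 0.40 and the adjusted p was 1.00. The choroid plexus level was itself lower in MS5 and moved with Hoxb3. The difference therefore had to shrink whatever the cause, and this fit cannot tell causes apart. Without MS5 replicates 9 and 14, also chosen after seeing the data, the difference was -0.30 (adjusted p = 1.00).

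**Figure D4:**
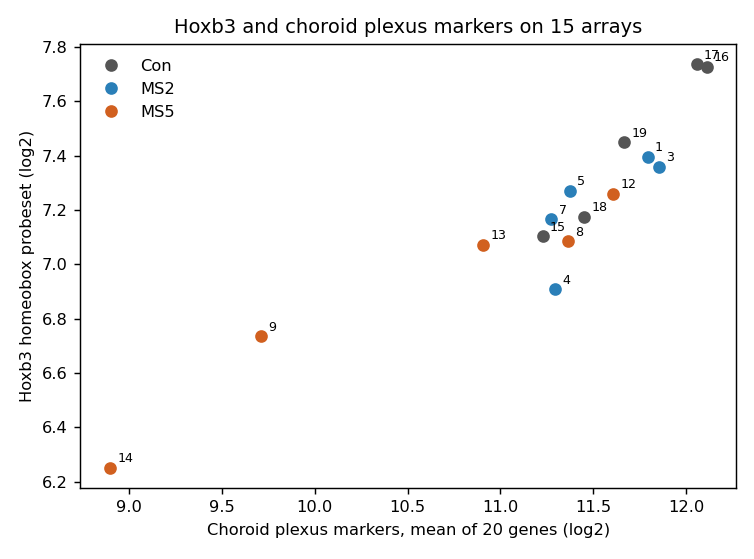
Hoxb3 homeobox probeset (log2) against the mean log2 level of 20 choroid plexus markers, 1 point per array, coloured by group and numbered by replicate. MS5 replicates 14 and 9 sit at the lower left, and the 13 other arrays rise together between 10.91 and 12.11.

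The 7 other marker lists moved less with Hoxb3, but given how the choroid plexus list was selected the comparison was not like for like. Endothelium gave r = 0.65 (permutation p = 0.010, adjusted 0.040), which was 0.35 (permutation p = 0.24) without Con replicates 16 and 17. Cerebellum gave a rho of -0.63 (permutation p = 0.015, adjusted 0.059) and an r of -0.34. Meninges and fibroblasts gave 0.29, blood 0.32, immune cells 0.32, hippocampus and dorsal forebrain 0.25, and hindbrain and spinal cord neurons -0.27, with adjusted permutation p of 0.34 for each. Without the 2 farthest arrays, which differed by list, these 5 gave 0.61, 0.33, 0.16, 0.26 and -0.17. For meninges and fibroblasts, without Con replicate 19 and MS5 replicate 8, the unadjusted permutation p was then 0.024. For the others it was 0.27 to 0.59. Within slides 1 and 2 endothelium gave 0.76 and 0.70, cerebellum -0.22 and -0.29, and blood -0.55 and 0.86, so that the sign for blood differed between slides. Meninges and fibroblasts gave 0.42 and 0.19 within slides, immune cells -0.32 and 0.45, hippocampus 0.25 and 0.19, and hindbrain -0.11 and -0.22. The list of hindbrain and spinal cord neurons had 7 of 11 genes well above background on all arrays and 2 on none. Across 27871 genes that passed the flag throughout a group, the 5 most like Hoxb3 were Abca4 (r = 0.974), Msx1 (0.972), Slc28a3 (0.967), Cab39l (0.966) and Col8a2 (0.965). These values are a description over 15 arrays. In MS5 against Con the 5 differed by -0.71, -0.87, -0.69, -0.66 and -1.04 (log2).

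Hoxa4, a gene of the paralog group that in the embryo marks the hindbrain and neck, stood at 6.33 to 6.46 in Con, 6.27 to 6.37 in MS2 and 6.35 to 6.56 in MS5. The groups overlapped within a narrow range. The MS5 mean exceeded the MS2 mean by 0.11 (SE 0.043, unadjusted limma p = 0.027, adjusted p = 1.00, exact permutation p = 0.016). Without the 2 arrays that stood apart the difference was 0.078 (unadjusted limma p = 0.089, exact permutation p = 0.057). Against Con, Hoxa4 differed by 0.033 in MS5 and by -0.072 in MS2.

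The remaining probesets heard throughout a group showed no called difference. Their lowest, median and highest levels over the 15 arrays were 6.22, 6.37 and 6.66 for Hoxa6, and 6.39, 6.48 and 6.65 for Hoxa7. They were 6.79, 6.90 and 7.08 for the Hoxa9 probeset that passed on all arrays, and 6.29, 6.55 and 7.09 for the other. For Hoxb6 they were 6.24, 6.46 and 6.54, and for Hoxc12 6.18, 6.42 and 6.65. In each of these probesets the 3 groups overlapped. Hoxa6 and Hoxb6, genes of trunk patterning, differed by 0.0046 (SE 0.099) and -0.00095 (SE 0.055) between MS5 and Con. Hoxa7 differed by 0.044 (SE 0.053). Hoxa9, which acts in blood-forming cells as well as in the trunk, had 2 probesets that differed by -0.041 (SE 0.057) and -0.042 (SE 0.11). In MS2 against Con the same probesets differed by -0.082 and -0.20, the latter with an exact permutation p of 0.17. Hoxc12, a gene of the posterior end of its cluster, differed by -0.036 (SE 0.084).

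The partners and regulators of Hox genes were examined as lists. All 9 Hox cofactor genes were well above background on 15 arrays, and 0 were called in any contrast over all arrays. All 9 were higher in MS5 than in Con, with a median of 0.10, and 0 passed an unadjusted limma p under 0.05. Over all probesets 50.2% were higher in this contrast. Meis1 and Meis2, which bind DNA beside Hox proteins, differed by 0.84 (SE 0.54, exact permutation p = 0.11) and 0.46 (SE 0.33, p = 0.29). Meis1 ranged from 8.50 to 10.31 in Con, from 8.50 to 11.31 in MS2 and from 9.11 to 10.66 in MS5. Its highest array was MS2 replicate 4, the array lowest in hippocampal markers, and the part of tissue make-up in these values was not tested. Pbx3, which joins Hox proteins on DNA, differed by 0.76 (SE 0.47, exact permutation p = 0.095). Without the 2 arrays that stood apart, Meis1 and Pbx3 were called higher in MS5 against Con, 2 of 9, where 0.298% of all probesets were called. Meis1 then differed by 1.01 (SE 0.47, adjusted p = 0.87, exact permutation p = 0.087). Pbx3 differed by 0.91 (SE 0.38, adjusted p = 0.83, exact permutation p = 0.087). The call on these cofactors thus changed with the arrays used. In the same setting 3 of 11 genes of the hindbrain and spinal cord neuron list were called higher in MS5 against Con. Against MS2 it was also 3 of 11, where 0.221% of all probesets were called. Over all arrays 0 of these 11 were called. MS2 replicate 4, MS5 replicate 8 and MS5 replicate 14 had the highest mean levels both in this list and in the cofactor list. The part of tissue make-up in these calls was not tested.

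Of 9 upstream regulators of Hox genes, 3 were well above background on all arrays and 2 on none. Their calls were 0 in each contrast over all arrays. Without the 2 arrays that stood apart, a setting chosen after seeing the data, Gbx2 was called higher in MS5 against Con and against MS2. Gbx2 is a homeobox gene of the anterior hindbrain and thalamus. This was 1 of 9 in each contrast, where 0.298% and 0.221% of all probesets were called. Gbx2 then differed by 1.17 (SE 0.15, adjusted p = 0.18, exact permutation p = 0.0079) and by 1.27 (SE 0.16, adjusted p = 0.13, exact permutation p = 0.029). Each exact p is the smallest that these numbers of arrays allow. Over all arrays Gbx2 differed by 0.92 from Con (SE 0.59, exact permutation p = 0.032), at 5.96 to 6.40 in Con, 5.89 to 9.76 in MS2 and 6.10 to 7.58 in MS5. Of 21 Polycomb and Trithorax genes on the array, 20 were well above background on all 15 arrays, 0 were called in any contrast, and their median difference between MS5 and Con was -0.041. At an unadjusted limma p under 0.05, 1 of 21 passed in MS5 against Con, where 3.91% of all probesets did. In MS2 against Con 1 of 21 passed, where 4.17% did, and in MS5 against MS2 2 of 21 passed, where 3.97% did. These genes were Ring1, Bmi1, and Bmi1 with Jarid2, all encoding Polycomb proteins. Of 13 measured neighbours and non-coding transcripts of the clusters, 10 were well above background on all arrays and 0 were called. Hoxa11as, the antisense transcript of Hoxa11, was well above background on 15 arrays and differed by 0.030 between MS5 and Con. Hoxa11 itself was well above background on 0 arrays.

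The Hox clusters also hold miR genes, and 9 miRs from them were measured on 9 miR arrays, 3 per group. Their replicate numbers include MS2 replicate 4 and MS5 replicate 9, the numbers of the 2 mRNA arrays that stood apart, and MS5 replicate 14. The labels do not state whether equal numbers mean the same animal. The mature sequences of 2 pairs are shown because each pair shares its seed, bases 2 to 8, in capitals. They are those of the 5p arms in RefSeq (GRCm38.p6), to which the array names without an arm correspond.
miR-10a: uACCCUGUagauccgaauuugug
miR-10b: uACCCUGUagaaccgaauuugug
miR-196a: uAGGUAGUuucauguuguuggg
miR-196b: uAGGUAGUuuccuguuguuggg
Members of a pair differ at 1 base outside the seed. In that build miR-10b lies at chr2:74726074-74726096, in the Hoxd cluster, and miR-10a at chr11:96317186-96317208, in the Hoxb cluster. The miR-10 and miR-196 families are known for targeting Hox transcripts.

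The level of miR-10b was 4.83, 4.76 and 4.60 (log2) on Con arrays, 4.83, 4.83 and 4.84 on MS2 arrays, and 4.93, 4.83 and 4.83 on MS5 arrays. The groups touched or overlapped. Its mean ranked above 73.6% of the 1412 mouse probe sets, hairpin probe sets included. This was still a low level, since the 90th percentile of the means was 8.24 and the highest mean was 14.58. The 8 other Hox cluster miRs lay between 3.65 and 4.32, where the medians of the arrays over all mouse probe sets were 4.17 to 4.21. The 7 hairpin probe sets of these miRs lay between 3.78 and 4.31. No detection flag was used for the miR arrays.

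The miRs were called by the same rule as the mRNAs. In MS5 against Con 0 of 9 were called, where the background was 0.992% of mouse probe sets, and 0 passed an unadjusted limma p under 0.05, where 8.5% did. In MS2 against Con the counts were 0 and 0, against backgrounds of 2.97% and 13.2%. In MS5 against MS2 0 were called (background 0.425%), and miR-196b passed the unadjusted p, where 7.01% of all did. It differed by -0.24 (SE 0.093, unadjusted limma p = 0.029, adjusted p = 0.61, exact permutation p = 0.20). With 3 arrays against 3 the exact test cannot go below 0.1. The 9 miRs differed by -0.080 to 0.13 between MS5 and Con, with an exact permutation p of 0.30 for miR-10b at 0.13 (SE 0.077).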

How the data were processed

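The authors deposited the intensity of each spot from the Agilent scanner, with 0 or 1 flags that are other values, and log2 tables that they had background adjusted, quantile normalized and, for miRs, summarized with RMA. Here normexp (offset of 50) corrected the mean signal by the local background, and the 62976 spots were quantile normalized and put on the log2 scale. The 3671 control spots were removed, and replicate spots were averaged. At 41 Hox probesets with 1 spot the values equalled the authors' log2 table within rounding, and at 2 with 10 spots they differed by up to 0.10.

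Groups were compared in 1 limma fit of 3 groups (R 4.3.3, limma 3.58.1), with Benjamini-Hochberg adjustment over all probesets, and single probesets with two-sided exact permutation tests. The 9 miR arrays were fitted likewise, from the log2 values the authors deposited. The fit was tested on simulated data. The probeset with the highest mean stood for a listed gene. Named were every Hox gene, called genes of the 4 Hox lists, Meis1, Meis2, Pbx3, the miRs, Ttr, Xist and the 5 genes most like Hoxb3. Ddx3y, Hoxa11as, Ring1, Bmi1 and Jarid2 were chosen after their values were seen. Some genes and sequences are not reported here. The members and lists were chosen with earlier results of these data known. The number of arrays limits the precision.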

Additional observations from a re-analysis of the deposited data

Results flagged for a closer look

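Among 5 arrays of a group, an array was singled out where its gap to the nearest other was large against the range of the group. Chance singles out about 1 in 20 groups, and 33 combinations of item and group were examined, of which 4 stood out. Hoxb6 was at 6.24 on MS2 replicate 5, against 6.47 to 6.53 on the other MS2 arrays. The mean level of the hippocampus and dorsal forebrain markers was 10.83 on MS2 replicate 4, against 12.68 to 12.94. Xist was at 11.34 on MS5 replicate 9, against 5.89 to 6.05, and at 6.08 on Con replicate 19, against 5.93 to 5.97. No difference between the responses to the 2 doses passed an adjusted p under 0.05 for a Hox probeset.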

How the results depend on the processing

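No paired analysis was possible because the mRNA groups compared share no replicate numbers. The count of Hox probesets called in MS5 against Con rose from 0 to 1, Hoxb3, with an offset of 0 (difference -0.92), with the processed signal (-1.07) and with array weights (-0.64), and it was 0 to 1 as each array was left out, with differences of -0.65 to -0.40. The adjusted p of this difference was 0.44 to 1.00 over all 27 alternatives. In MS2 against Con the count became 1 with the processed signal, for Hoxa5, and in MS5 against MS2 it became 1 with an offset of 0, for Hoxd11. Hoxa5 passed the background flag on 0 arrays and Hoxd11 on 1, and the cause was not tested. With the choroid plexus level, itself lower in MS5, in the fit, Hoxb3 differed by 0.057 between MS5 and MS2, the opposite sign. This setting and those that leave out 2 arrays were chosen after seeing the data. Hox probesets well above background numbered 17 by the flag for signals positive and significant, 4 when all arrays were required and 18 when 1 sufficed, against 8, and 8 to 9 as each array was left out. The Hoxb3 slope, which spans stress as well as dose, kept its sign in 22 of 22 alternatives, from -0.22 to -0.079 per mg/kg. Its unadjusted limma p was under 0.05 in all 22. The median Hox difference was -0.018 to 0.035 over 25 alternatives, the r with choroid plexus 0.94 and 0.96 over 2, and the count of miRs called 0 in all 11. Calls on the cofactor and regulator lists, summed over contrasts, rose from 0 to 4 without MS2 replicate 4 and MS5 replicate 9. Genes of hindbrain and spinal cord neurons called higher in MS5 against Con then rose from 0 to 3 of 11. Choroid plexus genes called lower in MS5 against Con then fell from 17 to 10, and to 3 without MS5 replicates 9 and 14. The shares of all probesets called in these 3 settings were 0.228%, 0.298% and 0.0736%. Low signal limits these results, since 35 Hox probesets were not above background throughout any group. Hoxa4, Hoxa6, Hoxa7, Hoxb6 and Hoxc12 lay little above the levels of unheard probesets.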
